A study of Mus musculus with 10 samples.

Results

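The genes described here are 8 transcription factors that mark or build the trophoblast lineage: Cdx2, Eomes, Elf5, Tfap2c, Gata2, Gata3, Ascl2 and Hand1. They were chosen by symbol from the gene column of the deposited expression table, and all 8 were found among its 54456 genes. A gene was tested when its mean over the 7 libraries was at least 10 normalized counts, meaning reads assigned to the gene divided by a factor for the depth of the library. Of the 8 factors 6 passed that filter, as did 15240 genes in all, and Elf5 and Hand1 did not.

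The 7 libraries were made from C57BL/6J mouse embryonic stem cells, as stranded total RNA sequencing libraries after ribosomal RNA removal. One library came from the wild-type line MK6, and 2 came from each of 3 converted lines, named conv-dSVA_F, conv-dSVA_F&D and conv-dSVA_D. The labels give no replicate numbers, and those used here were assigned in the order of the samples. All 6 converted libraries carry the same engineered X-linked Taf1 allele, which the labels call humanized, mousified and converted, with loxP in intron 24, and all received a Cre plasmid (pCAGiCre). Their genotypes also list the Cas9 plasmids pSpCas9 and pSpCas9GFP and the swap-in plasmid LPSwapinRed_pUC19. SVA elements are primate retrotransposons, and an SVA insertion in TAF1 causes X-linked dystonia parkinsonism. The group names give the SVA that each line lacks: SVA_F in conv-dSVA_F, SVA_D in conv-dSVA_D, and both in conv-dSVA_F&D. The wild type has none of these changes. Cells were kept on gelatin in serum with LIF, CHIR99021 and PD0325901. The labels give 1 line name per genotype, so genotype and line cannot be told apart, and they do not say that replicates were separate cultures, so p-values reflect only how far these samples scatter, and that scatter may be technical. The other 3 of the 10 samples were not analysed here.

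Depth was 16588467 to 26562418 reads per library, and conv-dSVA_F&D replicate 2 was the shallowest. A gene at 0 could still have had up to 3 reads, which is 2.45 to 4.18 normalized counts depending on the library, counting error only. The edited gene Taf1 stood at 2898 in the wild type and at 362 to 1116 in the converted libraries; neither the labels nor the files say if the counting took in reads of human sequence in the edited allele. Defining markers of the stem cell label were high: Pou5f1 stood at 18394 to 24255 and Nanog at 16246 to 28144 in every library. The 9 fibroblast markers summed to 573 in the wild type and to 53.1 to 197 in the converted libraries. Acta2 made the largest part of the wild-type sum, at 299, with Col1a2 at 96.0 and Postn at 57.9. Postn was at 0 in the converted libraries, and Lum was at 0 in all 7. Of the 4 tested markers, the wild type was highest for 3. Conv-dSVA_F replicate 1 was highest for the other, Thy1 (46.8, against 29.5 in the wild type). The median of chromosome 6, which holds Gata2, lay 0.41 and 0.36 above the wild type on the log2 scale with SVA_F deleted, 0.15 and 0.14 above it with SVA_D deleted, and at 0.00 and -0.01 with both deleted. That of chromosome 8 lay at 0.63 and 0.44 with SVA_F deleted, 0.07 and 0.24 with SVA_D deleted, and 0.00 and -0.01 with both deleted. That of chromosome 18 lay at 0.51 in conv-dSVA_F&D replicate 2 and at -0.10 to -0.03 in the other converted libraries.

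The trophoblast is the outer layer of the blastocyst and gives rise to the placenta, whereas embryonic stem cells derive from the inner cell mass and normally do not enter that lineage. Cdx2 is switched on in outer cells through TEAD4 with YAP1 and WWTR1, and CDX2 and POU5F1 repress each other. Tfap2c, Gata3 and Gata2 act with Cdx2, while Eomes and Elf5 hold the trophoblast stem cell state that follows; the Elf5 promoter is methylated in embryonic stem cells. Ascl2, an imprinted gene expressed from the maternal allele, is needed for the spongiotrophoblast, and Hand1 drives the formation of trophoblast giant cells. Several of these genes are also used outside the trophoblast, Tfap2c in stem and germ cells, Eomes in mesendoderm, Gata2 in blood and Ascl2 as a WNT target.

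Start-site sequences are shown for the 5 factors whose levels moved most between libraries or stood nearest to 0, so that their makeup can be compared. Each is the 250 bases before a RefSeq start (GRCm38.p6), written 5′ to 3′ on the gene's strand. RefSeq starts were matched for 6 of the 8 factors; Tfap2c and Hand1 had no entry. Capitals mark matches, on either strand, to 6 motifs. These are AGATAA for proteins of the Gata family, CAGCTG for the E-box of ASCL proteins, GCCNNNGGC for TFAP2 factors, GGAATG for TEAD factors and CTTTGA for the TCF and LEF factors. The sixth, ATGCAAAT for the octamer of OCT proteins, was added after the Cdx2 sequence had been read. No 2 matches overlapped in the windows shown. The windows are chr6:88193641-88193890 (plus strand) for Gata2, chr7:142969265-142969514 (minus) for Ascl2, chr5:147307250-147307499 (minus) for Cdx2, chr2:9878601-9878850 (minus) for Gata3 and chr2:103423818-103424067 (plus) for Elf5.
Gata2: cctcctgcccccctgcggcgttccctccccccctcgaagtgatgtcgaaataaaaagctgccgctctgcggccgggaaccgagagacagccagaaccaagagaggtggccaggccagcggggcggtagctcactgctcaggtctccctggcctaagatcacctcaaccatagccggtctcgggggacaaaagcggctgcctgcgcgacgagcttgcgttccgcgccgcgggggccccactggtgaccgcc
Ascl2: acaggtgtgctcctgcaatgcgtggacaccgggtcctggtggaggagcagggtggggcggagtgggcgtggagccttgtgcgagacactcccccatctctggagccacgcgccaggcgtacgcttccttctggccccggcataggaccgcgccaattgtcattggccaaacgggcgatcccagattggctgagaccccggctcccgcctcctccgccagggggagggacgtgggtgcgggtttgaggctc
Cdx2: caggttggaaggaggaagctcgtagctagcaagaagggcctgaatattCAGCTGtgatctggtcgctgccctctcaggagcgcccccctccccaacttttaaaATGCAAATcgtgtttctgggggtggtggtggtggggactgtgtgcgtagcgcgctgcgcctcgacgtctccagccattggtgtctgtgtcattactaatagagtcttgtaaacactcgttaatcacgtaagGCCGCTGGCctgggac
Gata3: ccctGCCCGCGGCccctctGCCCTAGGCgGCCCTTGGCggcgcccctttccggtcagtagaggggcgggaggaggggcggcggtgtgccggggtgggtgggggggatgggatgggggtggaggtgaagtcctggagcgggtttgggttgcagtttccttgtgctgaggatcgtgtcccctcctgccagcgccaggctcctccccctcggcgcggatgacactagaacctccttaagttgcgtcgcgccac
Elf5: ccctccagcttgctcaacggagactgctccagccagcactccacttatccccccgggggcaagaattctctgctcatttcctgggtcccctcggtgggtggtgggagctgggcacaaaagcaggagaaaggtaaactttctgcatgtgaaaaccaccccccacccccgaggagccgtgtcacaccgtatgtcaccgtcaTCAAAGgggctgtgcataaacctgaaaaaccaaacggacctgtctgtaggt

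The windows shown for Gata2 and Ascl2 held none of the 6 motifs, but a second Gata2 start, at which the sequence is not shown, held 1 TFAP2 and 1 TEAD match. Cdx2 held 1 E-box, 1 octamer and 1 TFAP2 match, Gata3 held 3 TFAP2 matches near its 5′ end, and Elf5 held 1 TCF and LEF match on the opposite strand. Over 32851 RefSeq start windows of the same length, 13.0% held the E-box, 13.7% the TFAP2 motif, 13.8% the TCF and LEF motif, and 526 windows held the octamer. The ratio of observed to expected CpG pairs was 0.785 for Gata2, 0.690 for Cdx2, 0.671 for Ascl2, 0.633 for Gata3 and 0.402 for Elf5, against a median of 0.373 over all windows. A second Elf5 start, at which the sequence is not shown, held 1 E-box and 1 TEAD match, had 2 CpG pairs in its window and a ratio of 0.0814. These matches describe the letters in these windows and were not tested against binding.

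Per kilobase of annotated exon, the 8 factors spanned a wide range of levels, and their order differed between libraries. Gata2, for instance, was the highest of the 8 in conv-dSVA_F replicate 1 (210.0). In the wild type it stood at 9.50, below Cdx2 (29.9) and Gata3 (12.1). Tfap2c averaged 119 normalized counts per kilobase over the 7 libraries (lowest 83.9, highest 166) and Ascl2 118 (64.9 to 200.0). Eomes averaged 84.3 (41.8 to 115), Gata2 48.5 (9.50 to 210.0), Cdx2 28.8 (4.69 to 74.1) and Gata3 16.3 (4.59 to 38.7). Hand1 averaged 1.48 (0 to 5.96) and Elf5 0.584 (0 to 1.88). The ranges of every pair of neighbours in that order of averages overlapped. Tfap2c and Ascl2 therefore sat near the median of tested protein-coding genes, with 53.8% and 53.6% of them below, whereas 26.5% lay below Cdx2 and 0.614% below Hand1. In the same sum over all 8 factors, conv-dSVA_F replicate 1 was highest (678 per kilobase), followed by conv-dSVA_F&D replicate 2 (566), conv-dSVA_F replicate 2 (413) and conv-dSVA_F&D replicate 1 (352). The wild type stood at 309 and conv-dSVA_D at 285 and 314. In these bulk libraries, fewer cells of a type and less RNA per cell cannot be told apart.

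**Figure D1:**
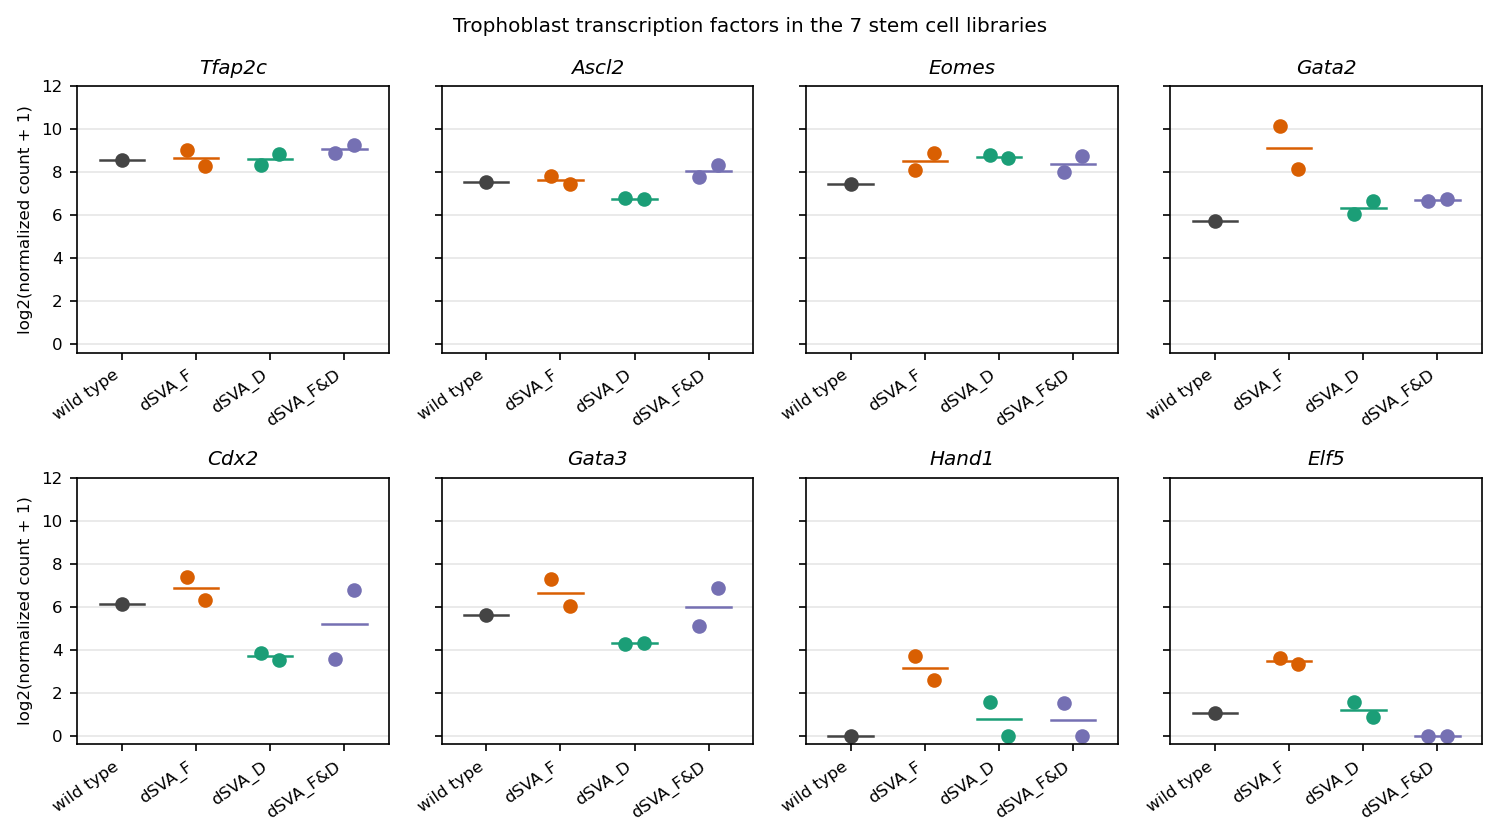
Levels of the 8 trophoblast factors, as log2 of the normalized count plus 1, in each library (points) by group, with a bar at the mean of the log2 values of the group. Tfap2c has the narrowest range of the 6 tested factors (1.98-fold), Gata2 is high in conv-dSVA_F (1133 and 278 normalized counts), Cdx2 and Gata3 are low in conv-dSVA_D, and Elf5 and Hand1 stay at or near 0 outside conv-dSVA_F.

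In the sentences that give a level in every library, replicate 1 precedes replicate 2. Cdx2 (chr5:147300805-147307270, minus strand, GRCm38), which opens the trophoblast program, stood at 67.7 normalized counts in the wild type, at 168 and 77.2 with SVA_F deleted, at 13.4 and 10.6 with SVA_D deleted and at 11.0 and 109 with both deleted. The conv-dSVA_D libraries were low, and 1 conv-dSVA_F&D library lay with them while the other lay with conv-dSVA_F. Its highest and lowest libraries differed 15.8-fold, and the conv-dSVA_F&D replicates alone differed 9.89-fold. Gata3 (chr2:9857078-9890034, minus strand), a zinc finger factor that acts beside Cdx2, stood at 48.0 in the wild type, at 154 and 64.0 with SVA_F deleted, at 18.2 and 18.8 with SVA_D deleted and at 33.0 and 117 with both deleted. Both conv-dSVA_D libraries lay below the 5 others. Group means of Gata3 were 109 ± 63.7 in conv-dSVA_F, 18.5 ± 0.38 in conv-dSVA_D and 75.0 ± 59.4 in conv-dSVA_F&D (SD, n = 2 each).

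Gata2 (chr6:88193891-88207032, plus strand), which in the placenta activates hormone genes of giant cells and elsewhere serves blood progenitors, stood at 51.3 in the wild type, at 1133 and 278 with SVA_F deleted, at 65.3 and 98.8 with SVA_D deleted and at 98.9 and 107 with both deleted. Both conv-dSVA_F libraries lay above all others, and replicate 1 was 4.07-fold above replicate 2. The range from highest to lowest library was 22.1-fold. A range of at least 10-fold, which both Gata2 and Cdx2 had, was found for 4.39% of the 14906 tested genes with reads in all libraries.

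Eomes (chr9:118478212-118486132, plus strand), a T-box factor, stood at 174 in the wild type, at 277 and 479 with SVA_F deleted, at 445 and 400.0 with SVA_D deleted and at 253 and 426 with both deleted. The wild type was lowest and the 3 converted groups overlapped. Tfap2c (chr2:172549593-172558622, plus strand), an AP-2 factor, stood at 379.8 in the wild type, at 519 and 309 with SVA_F deleted, at 322 and 458 with SVA_D deleted and at 465 and 612 with both deleted. It had the narrowest range of the 6 tested factors, 1.98-fold, with the wild type inside the span of the converted libraries. Ascl2 (chr7:142966829-142969264, minus strand), a basic helix-loop-helix factor, stood at 182 in the wild type, at 227 and 175 with SVA_F deleted, at 108.5 and 105 with SVA_D deleted and at 215 and 325 with both deleted. Both conv-dSVA_D libraries lay below the 5 others.

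Elf5 (chr2:103411688-103450989, plus strand), an ETS factor, was listed at 1.09 in the wild type, at 11.1 and 9.14 with SVA_F deleted (13 and 9 reads), at 1.92 and 0.82 with SVA_D deleted and at 0 with both deleted. Only the conv-dSVA_F libraries were above 3 reads. Their mean of 10.1 ± 1.36 (SD, n = 2) was 2.92-fold the mean floor of 3 reads per library in conv-dSVA_F&D, 3.46 normalized counts. That ratio leaves out the counting error of the conv-dSVA_F reads and is not a lower bound. The 95% counting limits began at 5.89 and 4.18 in conv-dSVA_F and ended at 3.38 and 5.14 in conv-dSVA_F&D. Hand1 (chr11:57828705-57832818, minus strand) was listed at 0 in the wild type, at 11.9 and 5.08 with SVA_F deleted (14 and 5 reads), at 1.92 and 0 with SVA_D deleted and at 1.83 and 0 with both deleted. It too exceeded 3 reads in conv-dSVA_F alone. With no filter on low values, the limma difference between conv-dSVA_F&D and conv-dSVA_F was -3.47 ± 0.40 for Elf5 (limma adjusted p = 0.150) and -2.40 ± 0.88 for Hand1 (adjusted p = 0.362), and both had an unadjusted p under 0.05; at such low counts these fitted differences depend on the added count of 1. Without that filter limma called no gene of the whole table in this comparison, although 4058 had an unadjusted p under 0.05, so the adjusted values say nothing about these 2 factors in particular. Genes that overlap the factors had at most 9.75 normalized counts in any library; these were an antisense gene at Eomes and 3 genes at Gata3.

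Replicates of 1 group were compared next. In conv-dSVA_F, replicate 1 exceeded replicate 2 for 7 of the 8 factors, and Eomes was the exception. In conv-dSVA_F&D, replicate 2 exceeded replicate 1 for all 6 tested factors. The share of all tested genes with these directions was not computed, so neither count is a trait of the factors in particular. Among the 6 tested factors, replicates were at least 2-fold apart for Cdx2, Gata2 and Gata3 in conv-dSVA_F, for none in conv-dSVA_D, and for Cdx2 and Gata3 in conv-dSVA_F&D. Among all tested genes with reads in both replicates, the share that far apart was 9.86%, 8.62% and 13.3%. The highest of the 7 values fell in conv-dSVA_F replicate 1 for 3 of the 6 tested factors (Cdx2, Gata2 and Gata3), compared with 16.3% of all tested genes.

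Differences between groups were taken as log2 of the normalized count plus 1, which understates the differences of low genes, and tested with limma with Benjamini-Hochberg adjustment over all 15240 genes (threshold 0.05). Ascl2 was the factor that rose in conv-dSVA_F&D compared with conv-dSVA_D, 2 lines whose names differ by the loss of SVA_F. Its mean went from 106.9 ± 2.26 in conv-dSVA_D to 270 ± 77.4 normalized counts in conv-dSVA_F&D (SD, n = 2 each), a log2 difference of 1.30 ± 0.28 (limma adjusted p = 0.0428). That is 1 of 6 tested factors, beside 3.16% of all genes (1.96% higher and 1.21% lower). On recovered reads edgeR called 1 of the 6 and DESeq2 called 3. Gata3 stood at 1.70 ± 0.64 (adjusted p = 0.178), Cdx2 at 1.49 ± 0.88 (adjusted p = 0.390), Tfap2c at 0.47 ± 0.28 (adjusted p = 0.382), Gata2 at 0.35 ± 0.54 (adjusted p = 0.768) and Eomes at -0.36 ± 0.31 (adjusted p = 0.555). The groups did not overlap for 4 of the 6, Ascl2, Gata2, Gata3 and Tfap2c, and this was so for 49.9% of all tested genes.

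The Ascl2 call was lost without any 1 of conv-dSVA_D replicates 1 and 2, conv-dSVA_F replicates 1 and 2 and conv-dSVA_F&D replicate 2. Over all 7 libraries left out in turn, the log2 difference ran from 1.00 to 1.59 and the adjusted p from 0.0246 to 0.213. The Cdx2 value rested on 1 library: it was 3.08 (adjusted p = 0.0246) without conv-dSVA_F&D replicate 1 and -0.11 (adjusted p = 0.952) without replicate 2. Gata3 likewise stood at 2.60 (adjusted p = 0.0403) without conv-dSVA_F&D replicate 1 and at 0.80 (adjusted p = 0.532) without replicate 2.

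Around the factors, genes of trophoblast stem cells and their epithelium were read from a list of 16. All of them were tested, and 3 were called higher in this comparison. They were the WNT ligand gene Wnt7b (11.5 and 13.1 with SVA_D deleted, 55.9 and 148 with both deleted; log2 difference 2.79 ± 0.57, limma adjusted p = 0.0358) and the simple-epithelial keratins Krt8 (67.2 and 93.1 against 320.5 and 508; 2.34 ± 0.43, adjusted p = 0.0254) and Krt18 (2.08 ± 0.41, adjusted p = 0.0303). In each of them both conv-dSVA_D libraries were lowest. The list's median difference was 0.27, against 0.00 over all genes tested. In fits with 1 library left out, here and below, the number of genes called over the whole table also varied widely. Calls lost in such fits, for the factors as for the lists, therefore cannot be read as particular to those genes. With conv-dSVA_D replicate 1, its replicate 2 or conv-dSVA_F&D replicate 2 left out, none of the 16 was called. Of 19 genes of the differentiated placenta 8 were tested and none passed (3 at an unadjusted p under 0.05, 0 with edgeR and 1 with DESeq2). Synb, Tpbpa, Prl3d1, Prl3b1, Prl2c2, Ctsq and Hsd3b6, which mark syncytial, spongiotrophoblast and giant cells, were at 0 in every library.

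Of 19 genes of the Hippo and Notch pathways that feed into Cdx2, Wwtr1 alone passed and rose (0.75 ± 0.12, limma adjusted p = 0.0161), from 1121 and 1074 with SVA_D deleted to 1828 and 1864 in conv-dSVA_F&D; it encodes a cofactor of TEAD proteins. Among 14 genes known to hold back the trophoblast fate, Nanog fell by 0.65 on the log2 scale (SE 0.13, adjusted p = 0.0282) and Pou5f1 did not pass; Nanog lies on chromosome 6. Of 8 BMP targets Id2 rose (1.61 ± 0.34, adjusted p = 0.0398), and of 12 tested WNT targets Notum (1.23 ± 0.23, adjusted p = 0.0274) and Tnfrsf19 (1.14 ± 0.24, adjusted p = 0.0392) rose. Elf3, an epithelial ETS gene of the same family as Elf5, rose by 1.66 ± 0.30 (adjusted p = 0.0226) and was the 1 gene called among 7 tested relatives of the factors; Tfap2b was at 0 throughout. No gene of the Hippo and Notch, BMP or WNT lists was called here once conv-dSVA_D replicate 1 or replicate 2 was left out. The same held for WNT genes without conv-dSVA_F&D replicate 2 and for BMP genes without replicate 1 of those lines.

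Between conv-dSVA_F&D and conv-dSVA_F, whose names differ by the loss of SVA_D, Gata2 was the tested factor called. It was lower in conv-dSVA_F&D, with means of 103 ± 5.93 against 706 ± 605 normalized counts (SD, n = 2 each) and a log2 difference of -2.44 ± 0.54 (limma adjusted p = 0.0408). This was 1 of 6 tested factors, beside 3.92% of all genes (1.71% higher and 2.21% lower). Cdx2 stood at -1.66 ± 0.88 (adjusted p = 0.322), Gata3 at -0.66 ± 0.64 (adjusted p = 0.605), Ascl2 at 0.41 ± 0.28 (adjusted p = 0.459), Tfap2c at 0.41 ± 0.28 (adjusted p = 0.440) and Eomes at -0.15 ± 0.31 (adjusted p = 0.826). Of the 6 tested factors, Gata2 alone had no overlap between the groups, which held for 49.3% of all tested genes.

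Gata2 was again the factor called between conv-dSVA_F and conv-dSVA_D, where it rose from 82.0 ± 23.7 to 706 ± 605 normalized counts (SD, n = 2 each; log2 difference 2.79 ± 0.54, limma adjusted p = 0.0426). This was 1 of 6 tested factors, beside 1.35% of all genes (1.08% higher and 0.262% lower), and both comparisons use the same conv-dSVA_F libraries. Cdx2 stood at 3.15 ± 0.88 (adjusted p = 0.117), Gata3 at 2.36 ± 0.64 (adjusted p = 0.109) and Ascl2 at 0.89 ± 0.28 (adjusted p = 0.155). For these 4 factors the groups did not overlap, as for 52.0% of all tested genes. Tfap2c (0.06 ± 0.28) and Eomes (-0.21 ± 0.31) stayed within the spread of the replicates (adjusted p = 0.942 and 0.791). Cdx2 and Gata3 passed in fits restricted to the libraries of both groups (adjusted p = 0.0172 and 0.0393) and with DESeq2 on reads (0.00139 and 0.00520). Both of these settings also called more genes over the whole table than the reported fit. Of all alternative settings, 13 left each of the 2 factors uncalled and 4 called it.

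The size of both Gata2 differences rested on conv-dSVA_F replicate 1. Without it the value against conv-dSVA_F&D was -1.43 (adjusted p = 0.252) and that against conv-dSVA_D 1.78 (adjusted p = 0.331). Without conv-dSVA_F replicate 2 they were -3.45 (adjusted p = 0.0121) and 3.80 (adjusted p = 0.00974). Leaving out a conv-dSVA_D library ended both calls, and leaving out a conv-dSVA_F&D library ended the first. Setting the medians of all chromosomes equal gave -2.05 (adjusted p = 0.0931) and 2.55 (adjusted p = 0.0514), which ended both calls. Over the 3 converted groups together, the moderated F test called Gata2 (limma adjusted p = 0.0301), 1 of 6 factors beside 5.58% of all genes, and Ascl2 stood at 0.0522, Gata3 at 0.0998 and Cdx2 at 0.120.

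**Figure D2:**
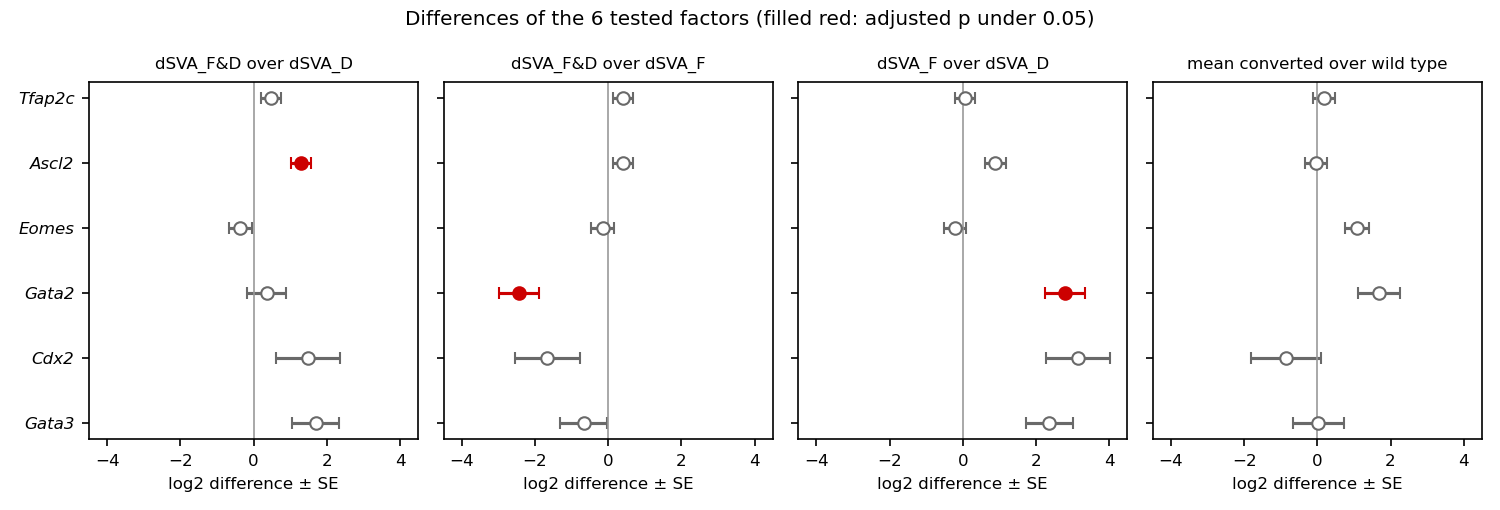
Log2 differences of the 6 tested factors in 4 comparisons, as points with bars of 1 standard error from limma, and filled red where the adjusted p was under 0.05. Ascl2 is filled in conv-dSVA_F&D over conv-dSVA_D (1.30), Gata2 in conv-dSVA_F&D over conv-dSVA_F (-2.44) and in conv-dSVA_F over conv-dSVA_D (2.79), and none in the comparison with the wild type.

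Other placental and signalling genes differed where conv-dSVA_F was compared. Against conv-dSVA_D, 3 of the 8 tested placenta genes were called higher. Peg10, a retrotransposon-derived gene on chromosome 6 that is required for the placenta, stood at 10105 and 2484 in conv-dSVA_F and at 387 and 42.5 in conv-dSVA_D (log2 difference 5.27 ± 0.88, limma adjusted p = 0.0268). The X-linked homeobox genes Rhox6 (3.53 ± 0.62, adjusted p = 0.0310) and Rhox9 (3.30 ± 0.62, adjusted p = 0.0396) were the other two. Krt8 (3.70 ± 0.43, adjusted p = 0.0114), Krt18 (3.55 ± 0.41, adjusted p = 0.0114) and Wnt7b (2.91 ± 0.57, adjusted p = 0.0446) were the 3 genes called among the 16 of the stem cell and epithelium list, whose median difference was 0.80 against -0.01 over all genes. Replicate 1 of conv-dSVA_F was the highest library for 7 of the 8 tested placenta genes and for 6 of the 16 epithelium genes. It was highest for 16.3% of all tested genes. Replicate 1 of conv-dSVA_F&D was highest for another 6 of the 16, beside 14.7% of all tested genes. The filter on the mean over the 7 libraries can favour genes high in 1 of them, so the placenta count partly depends on it. With 1 library left out, the number of genes called over the whole table varied widely too. Without conv-dSVA_F replicate 1 none of the placenta genes and 1 of the epithelium genes was called. Without conv-dSVA_D replicate 1 these counts were 1 and 0, and without replicate 2 both were 0. In the same comparison Amotl2 (0.61 ± 0.11, adjusted p = 0.0347) and Mob1a (0.65 ± 0.11, adjusted p = 0.0234), both regulators in the Hippo pathway, rose; Mob1a lies on chromosome 6. Neither was called once any 1 of the conv-dSVA_F or conv-dSVA_D libraries was left out. Of the 11 stem cell markers Tcl1 was the 1 called in that comparison, lower in conv-dSVA_F, beside 1.35% of all genes. The median difference of the 11 was -0.38, against -0.01 over all genes tested.

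In conv-dSVA_F&D against conv-dSVA_F, none of the 16 epithelium genes passed (5 at an unadjusted p under 0.05, 0 with edgeR and 1 with DESeq2). Rhox6 was the 1 placenta gene called, and it fell by 2.84 on the log2 scale (limma adjusted p = 0.0393). The BMP targets Id1 (-2.31 ± 0.35, adjusted p = 0.0144) and Id3 (-1.46 ± 0.34, adjusted p = 0.0458) fell, and so did Bmp4 itself (-3.17 ± 0.51, adjusted p = 0.0176), which is also a mesoderm marker and stood at 120 and 188 in conv-dSVA_F and at 13.7 and 18.1 in conv-dSVA_F&D. Lef1 (2.97 ± 0.51, adjusted p = 0.0201) and Notum (1.09 ± 0.23, adjusted p = 0.0368), both WNT targets, rose, as did Wwtr1 (0.54 ± 0.12, adjusted p = 0.0406), while Mob1a fell (-0.65 ± 0.11, adjusted p = 0.0176). Elf3 rose here too (1.26 ± 0.30, adjusted p = 0.0481). Of the 11 stem cell markers, Klf2 (0.69 ± 0.12, adjusted p = 0.0199) and Tcl1 (0.95 ± 0.22, adjusted p = 0.0441) rose, and of 4 tested fibroblast markers Acta2 fell (-3.42 ± 0.66, adjusted p = 0.0263). Calls over the whole table also varied widely with 1 library left out, so losses there are not particular to these lists. Without conv-dSVA_F replicate 1, none of the placenta, BMP, WNT or Hippo and Notch genes was called in this comparison. Without replicate 2 the epithelium genes called were 3 and the Hippo and Notch genes 0, and without conv-dSVA_F&D replicate 2 no WNT gene was called.

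**Figure D3:**
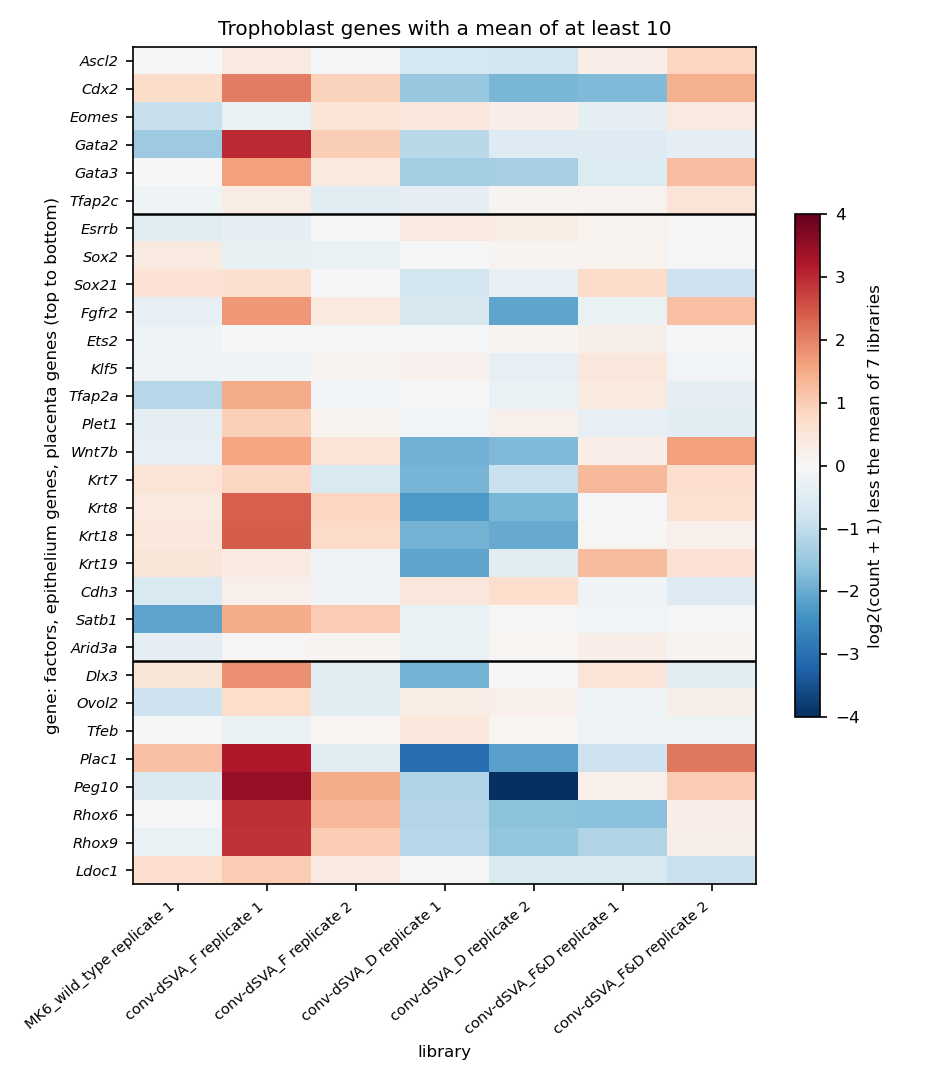
Log2 levels of the tested trophoblast genes (rows: factors, epithelium genes, placenta genes) in the 7 libraries (columns), each less its mean over the libraries, with red for above and blue for below. Conv-dSVA_F replicate 1 is red for Gata2, Krt8, Krt18, Peg10, Rhox6 and Rhox9, and conv-dSVA_D is blue for Cdx2, Gata3, Wnt7b and the keratins.

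Against the single wild-type library, none of the 6 tested factors passed, beside 1.15% of all genes, 0.623% higher and 0.525% lower (limma; 2 factors at an unadjusted p under 0.05, 0 called with edgeR and 1 with DESeq2). In 6 of 6 converted libraries Eomes and Gata2 stood above the wild type, and for 37.8% of all tested genes the wild type lay outside the converted libraries. The log2 differences were 1.09 ± 0.33 (adjusted p = 0.124) and 1.69 ± 0.59 (adjusted p = 0.163). DESeq2 on reads called Eomes (1.12, adjusted p = 0.0283). Cdx2 stood at -0.86 ± 0.96 (adjusted p = 0.688), Tfap2c at 0.19 ± 0.30 (adjusted p = 0.785), Gata3 at 0.02 ± 0.69 (adjusted p = 0.990) and Ascl2 at -0.03 ± 0.31 (adjusted p = 0.966). Converted libraries lay on both sides of the wild type for these 4. In the Hippo and Notch list Tead4, the partner of YAP1 at Cdx2, was higher in the converted groups (0.83 ± 0.14, limma adjusted p = 0.0326), with 706 in the wild type and 975 to 1495 in the converted libraries; it lies on chromosome 6.

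Some of these factors also mark other lineages, whose markers were read in the same libraries. Of 13 primitive streak and mesoderm markers, summed levels were 142 in the wild type, 345 and 346 with SVA_F deleted, 238 and 153 with SVA_D deleted and 132 and 145 with both deleted. Of 7 tested, Bmp4 was called as given above, and T and Mixl1 stood at 20.1 to 88.3 and 0 to 26.4. Blood and endothelium markers summed to 2288 to 3749; Cdh5 was at 0 in every library, Gata1 at 0 to 8.73, and none of the 7 tested was called between converted groups, while Pecam1 was lower in the converted groups than in the wild type (-0.74 ± 0.14, limma adjusted p = 0.0430). Most of that blood and endothelium sum came from Pecam1, at 1549 to 3322, and Tek, at 293 to 641. Among 8 ectoderm markers 2 were tested and none was called, with Krt5 at 0 to 5.46 and Trp63 at 0 to 3.27. Of 8 primitive endoderm markers 7 were tested, and 8 germ cell markers all were; none was called in any comparison. The part of any such cells in the levels of the factors was not tested.

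Genes next to a factor on its chromosome were read as well, taking the 5 nearest tested protein-coding genes on each side. Around Gata2 the 10 neighbours had a median difference of -0.49 between conv-dSVA_F&D and conv-dSVA_F, and 2 were called, Rpn1 (-0.57, limma adjusted p = 0.0231) and Sec61a1 (-0.61, adjusted p = 0.0212). Between conv-dSVA_F and conv-dSVA_D their median was 0.39, with Sec61a1 called (0.58, adjusted p = 0.0374). Against the wild type the median was 0.39, with Rab7 called (0.61, adjusted p = 0.0472). The whole of chromosome 6 also lay above the wild type by a median of 0.41 and 0.36 in conv-dSVA_F. It lay 0.15 and 0.14 above it in conv-dSVA_D and at 0.00 and -0.01 in conv-dSVA_F&D. Whether the neighbours moved apart from their chromosome was not tested. Mgll, 517 kb away, was high in both conv-dSVA_F libraries like Gata2 (90.2 and 85.3, against 10.6 to 23.8 elsewhere) and was called over the 3 converted groups (adjusted p = 0.0430). Its differences were -2.20 between conv-dSVA_F&D and conv-dSVA_F (adjusted p = 0.0640) and 2.69 between conv-dSVA_F and conv-dSVA_D (adjusted p = 0.0559), close to those of Gata2 in size, whereas Rpn1, Sec61a1 and Rab7 moved by less than 1 where they were called.

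**Figure D4:**
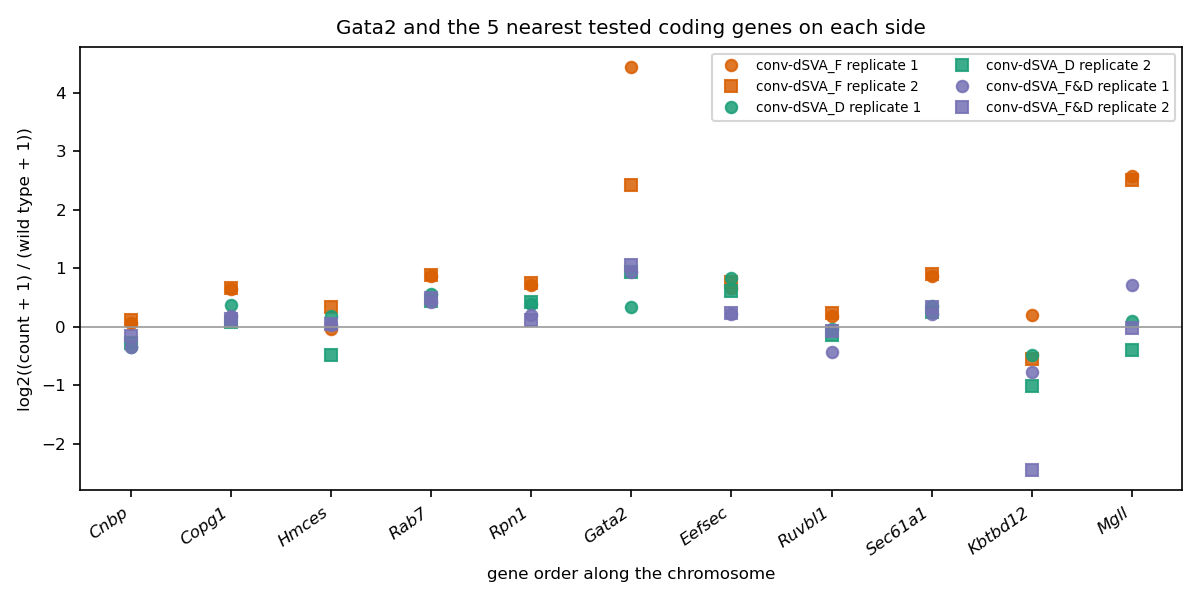
Log2 ratio of each converted library to the wild type, after adding 1 count, for Gata2 and the 5 nearest tested protein-coding genes on each side, in chromosome order with equal spacing. Gata2 and Mgll are highest in the 2 conv-dSVA_F libraries, and Rab7, Rpn1 and Sec61a1 lie above 0 in all 6 converted libraries.

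Around Ascl2, which lies in an imprinted cluster, none of the 10 neighbours was called in any of the 5 comparisons, and their median difference between conv-dSVA_F&D and conv-dSVA_D was 0.50. The neighbouring gene Tspan32 had the same low libraries as Ascl2 (79.7 and 84.1 with SVA_D deleted, 123 and 205 with both deleted; 0.95, adjusted p = 0.134). Of 12 tested imprinted genes of the wider region H19 was the 1 called, with 14.4 and 9.80 when SVA_D was deleted and 514 and 1432 when both were (6.06 ± 0.60, limma adjusted p = 0.00407). H19 stood at 350 in the wild type and averaged 1327 ± 1093 in conv-dSVA_F (SD, n = 2), so the conv-dSVA_D libraries were the lowest. It was also called higher in conv-dSVA_F than in conv-dSVA_D. None of the 10 neighbours of Cdx2 or of Tfap2c was called. Beside Eomes, Cmc1 was lower with both SVAs deleted than with SVA_D deleted (-1.28, adjusted p = 0.0177). Near Elf5, 621 kb away, the glutamate transporter gene Slc1a2 was high in conv-dSVA_F (88.5 and 72.1, against 0.96 to 5.57 elsewhere) and was called against conv-dSVA_D (4.81, adjusted p = 0.0310) and by conv-dSVA_F&D against it (-3.87, adjusted p = 0.0387). Pfkfb3 near Gata3 (1.76, conv-dSVA_F&D against conv-dSVA_F, adjusted p = 0.0365) and Larp1 near Hand1 (0.83 against the wild type, adjusted p = 0.0388) were the remaining ones.

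The genes whose levels most resembled each factor were taken by Pearson r of log2 levels over the 7 libraries, among 10306 or 10307 other genes with a mean of at least 100; with 7 points that share depth and group, such r values are descriptions. For Ascl2 they were Got1 (r = 0.977), Nudt9 (0.971) and Arrb1 (0.966), and for Cdx2 Fam161a (0.975), Smim3 (0.964) and Nipa2 (0.954). Smim3 lies on chromosome 18. For Eomes they were Abcf2 (0.993), Ppm1f (0.986) and Dhx33 (0.985), and for Tfap2c Ccdc32 (0.938), Rilpl2 (0.934) and Fam216a (0.918). For Gata3 they were Hmgxb4 (0.974), Sys1 (0.968) and Clic4 (0.965), of which Hmgxb4 lies on chromosome 8. For Gata2 they were Calu (0.975), Cln8 (0.972) and 2200002D01Rik (0.972), of which Calu lies on chromosome 6 and Cln8 on chromosome 8.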

How the data were processed

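RNA-seq levels of 7 mouse stem cell libraries were read from 1 table of 54456 genes. Its deposited signal is a normalized count: per the values, the authors scaled each library's gene counts by 1 factor. Tools named in the submitters' processing notes are STAR 2.7.3, featureCounts 1.6.3, Trimmomatic 0.36, DESeq2, deepTools 3.1.0 and Picard 2.18.20, with the build mm10. Strand setting, gene annotation and the role of each tool are not given in the sources used here. Steps between the values of each column gave back whole reads, of which 100% came within 0.1 of a whole read.

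Groups were compared with limma 3.58.1 (variance trend, R 4.3.3) on log2(normalized count + 1) for 15240 genes with a mean of at least 10, with 1 mean per group and all 7 libraries (3 residual degrees of freedom). The lone wild-type library is taken to vary like the other groups. Two-sided p-values were adjusted by the Benjamini-Hochberg method across all tested genes. The script was tested on simulated data. Alternatives were no filter, a minimum of 50, an added count of 0.5 or 5, no trend, the libraries of both sides only, edgeR 4.0.16 and DESeq2 1.42.0 on recovered reads, TMM factors, chromosome medians set equal and each library left out. Whole reads recovered gave edgeR 1, 1, 1, 1 and 0 calls among the factors over the 5 comparisons in the order of the report. Over all genes edgeR called 463, 553, 225, 835 and 305.

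Positions and exon lengths came from GENCODE M21 (GRCm38), which held 93.1% of the gene names. Promoter windows came from RefSeq (GRCm38.p6). The factors and the 16 lists were chosen with earlier results of these data known. All 8 factors were named in the report; from other lists up to 4 called genes with the smallest p in a comparison, markers at 0, called neighbours and the 3 most similar genes were named. Tspan32, the levels of Krt5, Trp63, T, Mixl1, Gata1, Postn, Col1a2, Acta2 and Thy1, and the octamer motif were chosen after values or sequences were seen.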

Additional observations from a re-analysis of the deposited data

How the results depend on the processing

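Counts of genes called are given in the order conv-dSVA_F&D against conv-dSVA_D, conv-dSVA_F&D against conv-dSVA_F, conv-dSVA_F against conv-dSVA_D, differences over the converted groups, and converted against wild type; as reported they were 482, 597, 205, 850 and 175. No filter on low values gave 0, 0, 0, 0 and 906, and no variance trend 0, 0, 1, 0 and 1. Using the libraries of both sides gave 246, 200 and 504 in the first 3, and DESeq2 gave 1031, 1206, 729, 1888 and 847. Chromosome medians set equal gave 194 in comparison 2 and 555 in comparison 4, and against the wild type an added count of 5 gave 275 and edgeR 305. Leaving out each library gave 0 to 769, 0 to 881, 0 to 488, 9 to 1315 and 2 to 599.

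Of the 6 tested factors, 1 was called in each of the first 4 comparisons and 0 against the wild type. No filter and no trend gave 0 in those 4. The libraries of both sides gave 0, 0 and 3 in the first 3. DESeq2 gave 3 in comparisons 1 and 3, 4 over the converted groups and 1 against the wild type. Chromosome medians set equal gave 0 in comparisons 2 and 3, and a minimum of 50 gave 2 in comparison 4. Leaving out each library gave 0 to 3, 0 to 1, 0 to 3, 0 to 4 and 0 to 0.

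Directions that changed belonged to differences that had not passed. The Ascl2 difference from the wild type was 0.0047 with chromosome medians set equal and -0.13 to 0.064 with libraries left out. With libraries left out, Cdx2 ranged from -0.11 to 3.08 and Eomes from -0.74 to 0.015 in the first comparison. Eomes ranged from -0.54 to 0.25 and Gata3 from -1.56 to 0.23 in comparison 2, Eomes from -0.61 to 0.18 and Tfap2c from -0.31 to 0.43 in comparison 3, and Gata3 from -0.28 to 0.32 against the wild type. The cause of these changes was not tested. A floor of 1 read left the same 2 factors, Elf5 and Hand1, at or under the floor in some library. No paired analysis was possible because the labels give no replicate numbers. Depth limits Elf5 and Hand1 most, with 26 and 23 reads over all libraries, and neither reached the filter on low values.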
